A study of Homo sapiens with 6 samples.

Results

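The genes described here are the collagens, the small proteoglycans LUM, DCN and BGN that bind collagen fibrils, and enzymes that modify or cross-link collagen (LOX, LOXL1 to LOXL4, PLOD1, PLOD2, PLOD3 and P4HA2). They were chosen by symbol: every gene named COL, a number, A and a number, plus the 12 named genes. 55 of the 34694 genes in the deposited signal table met this rule, 43 of them collagens. Expression was measured on Illumina arrays with 1 RNA sample each in SCC25, a human line derived from a squamous carcinoma of the tongue. 3 arrays came from cells given 2.0 mM aspirin (acetylsalicylic acid, an inhibitor of cyclooxygenases) and 3 from untreated control cells, and all cells were grown for 72 h. Replicates 1 and 3 of both groups were on chip 1 and replicate 2 on chip 2. The labels do not say whether the replicates were separate cultures, so the p-values measure the spread between these arrays, which may be technical. SCC25 is a single carcinoma line, and the labels name no stromal cells, the main source of collagen in a tumour.

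Collagens are triple helices of 3 chains. In the endoplasmic reticulum, prolyl and lysyl hydroxylases modify the chains before they fold. Outside the cell the propeptides are removed, fibrillar collagens assemble into fibrils, and lysyl oxidases cross-link them. Small leucine-rich proteoglycans coat the fibrils and set their diameter and spacing. Fibroblasts are the main source of the fibrillar types, whereas squamous epithelial cells typically make basement membrane collagens and the collagens that anchor the epithelium to it (types IV, VII and XVII).

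Values are normalized log2 signals, and a change is the aspirin mean minus the control mean with its standard error (SE). A gene was tested if its detection score was above 0.95 on at least 3 of the 6 arrays. This score is a deposited fraction, read as 1 minus the detection p-value against negative controls, and does not measure how bright a gene is. Some genes whose signals were above background, such as COL4A6, missed this filter. A change passed if limma's adjusted p was under 0.05 over the 15128 genes tested. An array was taken to show a gene above background if that score exceeded 0.95 or if the signal exceeded the background mean by 3 SD. Median signals ran from 101.9 to 127 intensity units, background means from 95.4 to 116 units, and 14691 to 15170 genes were detected per array. The number of arrays limits the precision.

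Of the 55 genes, 33 were tested and 27 of these were above background on all 6 arrays. 11 of the 33 passed the test, 10 lower and 1 higher with aspirin. Among all genes tested 20.2% passed, 9.72% lower and 10.5% higher. Passed changes of at least 2-fold were found in 8 of the 33 genes, all lower, against 3.45% of all genes for lower and 2.56% for higher. The 8 include DCN, which entered the test through its control arrays alone. These sizes depend on the background estimate. With a background taken from all listed genes, the changes were -0.19 for DCN, -0.70 for LUM, -0.24 for COL1A1 and -0.12 for COL1A2. The median change was -0.27 over the 33 genes and 0.02 over all genes tested, and over the 22 collagens tested it was 0.14. The genes that fell were the 3 proteoglycans, LOX, LOXL1, PLOD2 and the collagen genes COL1A1, COL1A2, COL5A2 and COL4A5, and the gene that rose was COL23A1. In 12 of the 33 genes the groups did not overlap, 10 lower and 2 higher with aspirin. Groups did not overlap in 38.8% of all genes tested, 18.2% lower and 20.6% higher.

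**Figure D1:**
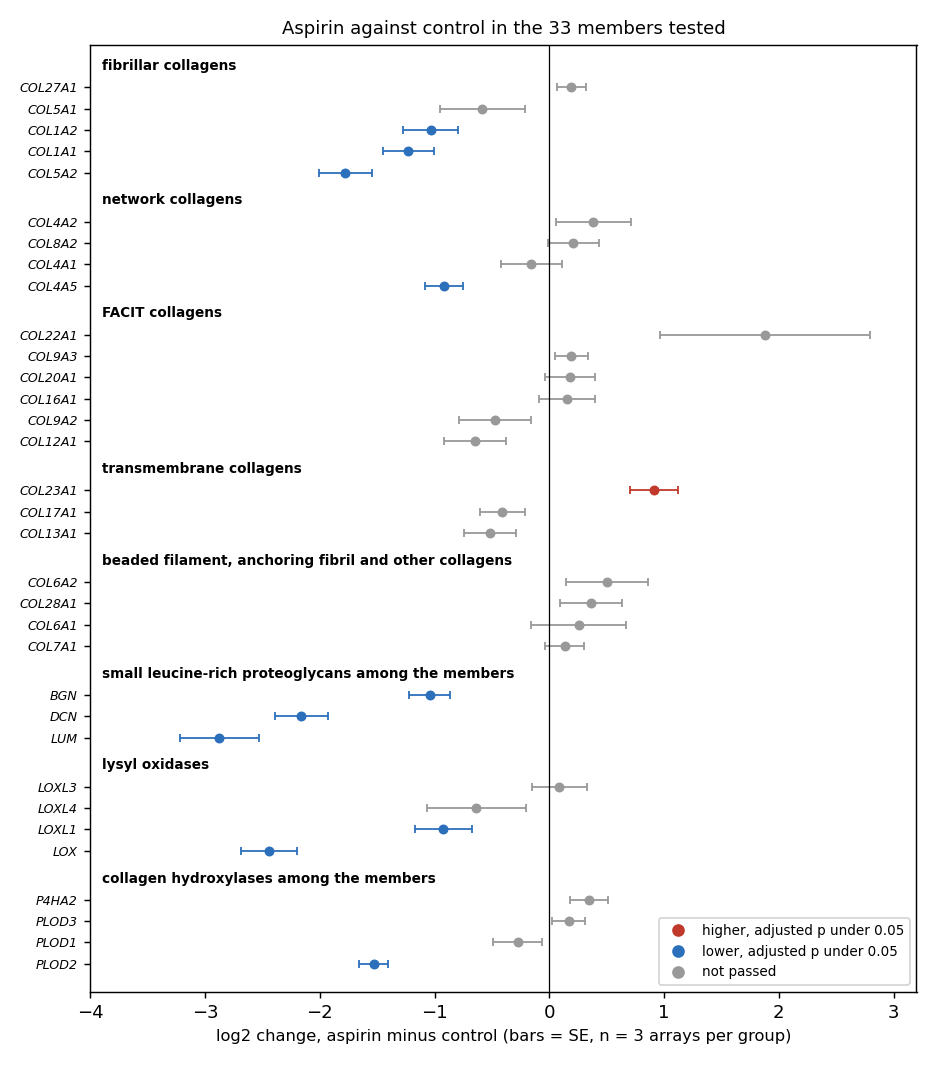
Log2 change (aspirin minus control, horizontal axis; bars are the SE, n = 3 arrays per group) of the 33 genes tested, grouped by type. The 3 proteoglycans, LOX, PLOD2, COL5A2, COL1A1 and COL1A2 lie below -1 (DCN at its fitted value), most other collagens lie nearer to 0, and COL22A1 has the widest bar.

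LOX, the copper-dependent oxidase that converts lysines of collagen and elastin to the aldehydes from which cross-links form, fell. It measured 8.65, 8.28 and 8.50 on aspirin arrays 1 to 3, against 11.47, 10.45 and 10.85 on control arrays 1 to 3. The groups were well apart, with the lowest control array above the highest aspirin array. The means were 8.48 ± 0.18 with aspirin and 10.92 ± 0.51 in control (SD, n = 3 each), a change of -2.44 ± 0.25 or 5.44-fold lower (limma adjusted p = 0.000745). PLOD2, the lysyl hydroxylase that acts on the collagen telopeptides and so favours hydroxylysine-derived cross-links, fell as well. Its values were 8.39, 8.56 and 8.54 with aspirin and 9.99, 10.01 and 10.07 in control. With replicates this close (SD 0.09 for aspirin and 0.04 for control), the change of -1.53 ± 0.13, 2.89-fold lower, had the smallest adjusted p of the 33 genes (0.000379).

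LOX and PLOD2 are both known targets of hypoxia-inducible factors, whose sites hold the core ACGTG or GCGTG. Their RefSeq promoter windows (build GRCh38.p14, 250 bases before and 50 from the gene's start) are shown because these were the 2 modifying enzymes that fell most. Both genes lie on the minus strand, LOX in chr5:122078210-122078509 and PLOD2 in chr3:146161135-146161434. Capitals mark ACGTG and GCGTG on either strand, CACGT and CACGC where they lie on the other strand.
LOX: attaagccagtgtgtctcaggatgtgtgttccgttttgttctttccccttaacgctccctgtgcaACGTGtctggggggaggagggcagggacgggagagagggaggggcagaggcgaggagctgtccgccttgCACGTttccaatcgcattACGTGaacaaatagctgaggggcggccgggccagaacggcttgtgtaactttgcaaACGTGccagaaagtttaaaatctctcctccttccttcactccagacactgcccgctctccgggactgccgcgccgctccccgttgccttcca
PLOD2: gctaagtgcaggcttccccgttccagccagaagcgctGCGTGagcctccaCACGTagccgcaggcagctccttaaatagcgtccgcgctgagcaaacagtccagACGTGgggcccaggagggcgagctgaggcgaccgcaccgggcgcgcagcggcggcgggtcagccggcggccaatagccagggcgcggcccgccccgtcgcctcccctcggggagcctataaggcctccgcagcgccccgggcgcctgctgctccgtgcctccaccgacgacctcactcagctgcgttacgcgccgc
The LOX window held ACGTG 4 times and no GCGTG. The PLOD2 window held ACGTG 2 times and GCGTG 1 time, and each window held 1 CCAAT. Of 35116 windows, 21.4% held ACGTG, 36.5% GCGTG and 48.4% at least one of the 2 cores. At least 4 copies of ACGTG, a count chosen after the LOX window was seen, were found in 0.843%. Of the 40 genes described here with a window, 16 (40%) held at least one core, so the cores are common and a match describes only the letters.

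The other cross-linking and hydroxylating enzymes differed less. LOXL1, a lysyl oxidase mostly linked to elastin, measured 4.45, 4.93 and 4.97 with aspirin and 5.22, 5.77 and 6.13 in control. These values lie close to background, and 2 of the 3 aspirin arrays and all 3 control arrays were above it. The change of -0.92 ± 0.25, 1.90-fold lower, passed with adjusted p = 0.0316. It was lost without aspirin array 1 (change -0.76, adjusted p = 0.0846), aspirin 2 (-0.997, 0.0606), aspirin 3 (-1.02, 0.0636), control 2 (-0.89, 0.0834) or control 3 (-0.71, 0.0995). LOXL3 changed by 0.09 ± 0.24 (adjusted p = 0.839), and LOXL2 was not above background on any array. PLOD1 and PLOD3, the other lysyl hydroxylases, had changes of -0.27 ± 0.21 (adjusted p = 0.414) and 0.17 ± 0.14 (adjusted p = 0.458). P4HA2, a catalytic subunit of the prolyl hydroxylase that stabilizes the triple helix, had 9.77, 10.08 and 9.96 with aspirin and 9.31, 9.77 and 9.68 in control, a change of 0.35 ± 0.17 that did not pass (adjusted p = 0.181).

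The 3 proteoglycans all fell. LUM (lumican), which binds collagen fibrils and limits their lateral growth, measured 4.81, 5.64 and 5.60 with aspirin and 7.47, 8.67 and 8.54 in control. The value on aspirin array 1 lies at background, so the size of the fall is a fitted value. The change of LUM, -2.88 ± 0.34 or 7.34-fold lower, was the most negative of the 33 genes tested (adjusted p = 0.00128). With the background from all listed genes it was -0.70 and did not pass (adjusted p = 0.0663), and LOX, at -2.95, was lower. DCN (decorin), which binds fibrillar collagen and transforming growth factor beta, exceeded background on none of the aspirin arrays (4.33, 4.56 and 4.66) and on each control array (6.19, 7.13 and 6.71). The fitted change of -2.16 ± 0.23 passed (adjusted p = 0.000906). Set against the lowest level measurable on the aspirin arrays, DCN was at least 3.61-fold lower with aspirin, a bound that was not itself tested. This bound divides the control mean by the mean of the dimmest signals above background on the aspirin arrays. DCN entered the test through its control arrays alone, and the bound holds for this background estimate only. With a background taken from all listed genes the fitted change was -0.19. BGN (biglycan), a close relative of decorin, was brighter over background, at 8.55, 9.15 and 8.97 with aspirin and 10.07, 9.93 and 9.79 in control. It changed by -1.04 ± 0.18, 2.06-fold lower (adjusted p = 0.00586). LUM and DCN are neighbours on chromosome 12 in the RefSeq annotation of GRCh38.p14.

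Of 11 fibrillar collagen genes listed, 5 were tested, 3 of them fell and 2 did not pass. COL5A2, a chain of the type V collagen that nucleates type I fibrils, measured 7.78, 8.52 and 8.29 with aspirin and 9.62, 10.11 and 10.20 in control. The groups did not overlap, and the change was -1.78 ± 0.23 or 3.43-fold lower (adjusted p = 0.00172). COL1A1 and COL1A2 encode the 2 chains of type I collagen, the main collagen of skin, bone and stroma. COL1A1 measured 6.56, 5.98 and 6.14 with aspirin against 7.03, 7.70 and 7.63 in control, a change of -1.23 ± 0.22 (2.34-fold lower, adjusted p = 0.00709). COL1A2 measured 5.39, 5.52 and 5.92 with aspirin against 6.14, 6.81 and 6.999 in control, a change of -1.04 ± 0.24 (2.05-fold lower, adjusted p = 0.0193). Both chains of type I collagen were thus lower on every aspirin array than on every control array. The COL1A2 call was lost without aspirin array 1 (change -0.93, adjusted p = 0.0551), aspirin 2 (-0.99, 0.0611), control 2 (-0.96, 0.0627) or control 3 (-0.86, 0.0695). COL27A1, a cartilage-type fibrillar collagen, had non-overlapping groups in the other direction, at 6.96, 7.04 and 6.89 with aspirin and 6.76, 6.82 and 6.73 in control. That change of 0.19 ± 0.13 did not pass (adjusted p = 0.328).

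**Figure D2:**
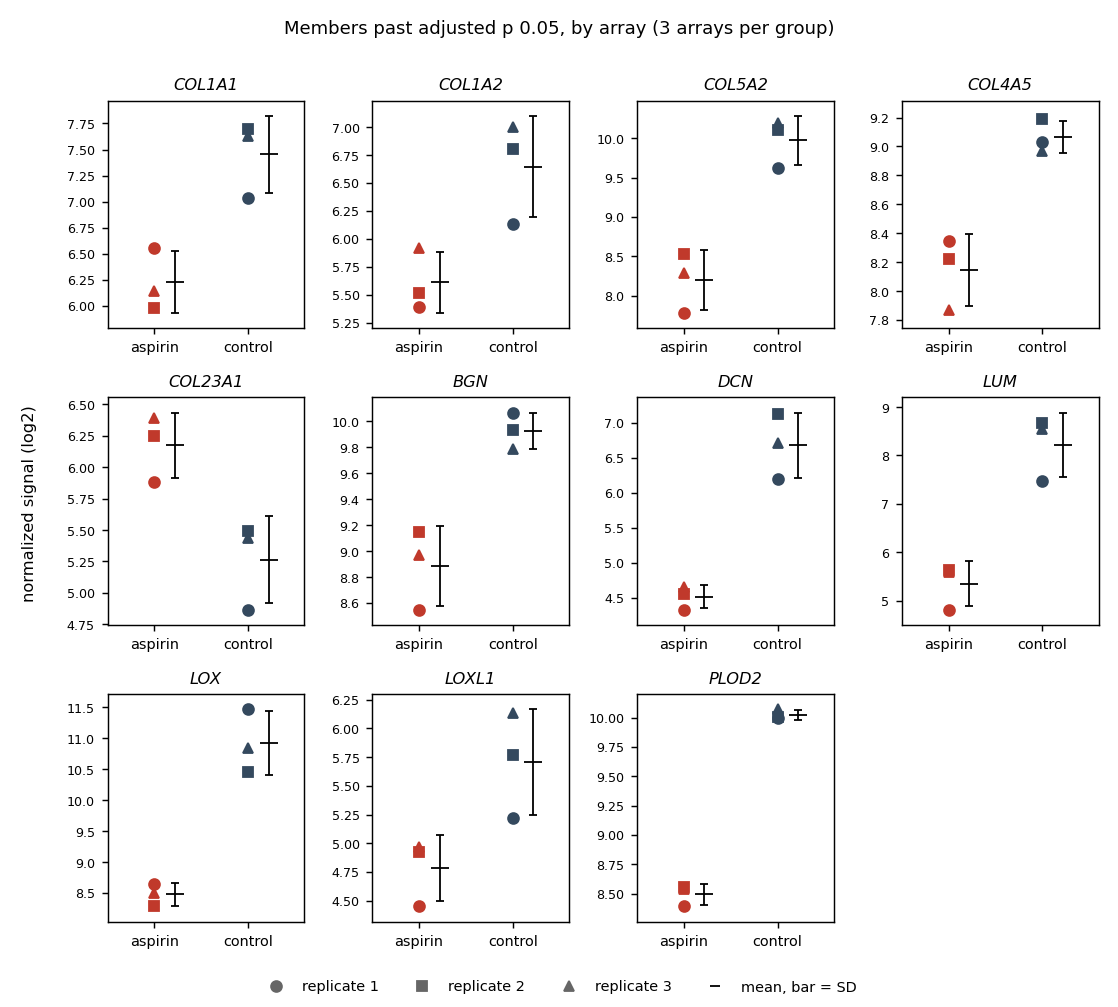
Normalized log2 signal of the 11 genes that passed the test, by array (points, shaped by replicate number; bars are mean and SD, n = 3 per group; each panel has its own axis). In every panel the aspirin arrays lie apart from the control arrays, below them in 10 genes and above them in COL23A1.

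Type I collagen, LUM and DCN are also classical fibroblast genes, so markers of other cells were read beside them. Of 12 fibroblast markers, only LUM, DCN, COL1A1, COL1A2, FAP, TWIST1 and FBLN1 were tested. Of these 4 fell, LUM, DCN, COL1A1 and COL1A2 themselves, while 9.72% of all genes tested were lower. The receptors PDGFRA and PDGFRB, the surface protein THY1 and the transcription factor TCF21 were above background on no array. Summed signal above background over the 7 fibroblast markers outside the genes described here was 333 to 773 intensity units with aspirin and 520 to 1136 in control, and over all 12 it was 423 to 924 with aspirin and 881 to 2167 in control. FAP, a fibroblast activation protease, changed by -0.95 ± 0.31 (adjusted p = 0.0623), and the matrix protein FBLN1 by -0.37 ± 0.19 (adjusted p = 0.211). With the replicate block both were called lower, FAP with adjusted p = 0.00515 and FBLN1 with 0.0442, and TWIST1 was not called (-0.24, 0.171). All 12 squamous keratinocyte markers were above background on all 6 arrays, and all but PKP1 were tested. Against the same 9.72%, 4 of them fell: KRT5 (-1.27), KRT14 (-1.27), DSG3 (-1.45) and SFN (-0.91). PKP1, which missed the detection filter, was lower with the filter on the signal (-1.40, adjusted p = 0.00147), where 12.1% of genes were lower. DSC3 did not pass (-0.59, adjusted p = 0.107) but was called lower with the replicate block (0.0117). TP63, KRT17, CDH1, EPCAM, JUP and COL17A1 did not pass in either fit, with changes from -0.41 to 0.24. Summed signal over the 12 keratinocyte markers was 29650 to 37000 units with aspirin and 45420 to 57280 in control. Of 6 endothelial markers only TEK was tested. TEK did not pass (-0.36, adjusted p = 0.118) but was called lower with the replicate block (0.0487). Its aspirin values (4.38, 4.74 and 4.53) lie at background. Only 1 aspirin array was above it, against 3 control arrays, so TEK entered the test mainly through its control arrays. Of 5 leukocyte markers CD14 fell (-0.94) and CD68 did not pass (-0.0014, adjusted p = 0.996), with PTPRC, CD3E and LYZ above background on no array. Summed signal was 7.67 to 42.9 units with aspirin and 19.1 to 88.6 in control for the endothelial list, and 834 to 1470 with aspirin and 1368 to 1684 in control for the leukocyte list. The part of these shifts in the changes of the collagen genes was not tested. In RNA from whole cultures, fewer cells that express a gene and less RNA per cell cannot be told apart.

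Network collagens form the sheets of basement membranes. Of 9 genes listed 4 were tested, and COL4A5 fell while 3 did not pass. COL4A5, a type IV chain, measured 8.35, 8.22 and 7.87 with aspirin and 9.03, 9.19 and 8.97 in control, a change of -0.92 ± 0.16 or 1.89-fold lower (adjusted p = 0.00638). COL4A6, which joins it in epithelial basement membranes, missed the detection score filter but was above background by its signal. It had 6.02, 5.78 and 5.79 with aspirin and 6.82, 6.84 and 7.22 in control. The groups did not overlap, and among the 13092 genes that pass a filter on the signal, of which 25.2% were called (12.1% lower and 13.2% higher), its change was -1.10 ± 0.16 (adjusted p = 0.00274). COL4A1 and COL4A2, the 2 chains of the common type IV trimer, did not pass, at -0.16 ± 0.27 (adjusted p = 0.722) and 0.38 ± 0.33 (adjusted p = 0.461). COL4A1 measured 9.76, 10.32 and 10.26 with aspirin against 9.68, 10.61 and 10.53 in control, so its groups overlapped. COL8A2, a short-chain network collagen, did not pass either (0.21 ± 0.22, adjusted p = 0.553). Its partner COL8A1 was above background on no aspirin array (4.40, 4.53 and 4.70) and on all 3 control arrays (5.23, 6.67 and 6.59). COL8A1 was not tested with the detection filter. With no filter its fitted change of -1.62 ± 0.38 did not pass (adjusted p = 0.0511). Under that setting 8.26% of 34693 genes passed, 3.98% lower and 4.28% higher. Set against the lowest level measurable on the aspirin arrays, the estimate for COL8A1 was at least 2.54-fold lower with aspirin. This bound was not tested and holds for this background estimate only.

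COL4A5 and COL4A6 lie head to head on the X chromosome and are known to share a promoter region. Their RefSeq windows are shown because both genes were lower with aspirin and the windows overlap. COL4A5 is on the plus strand in chrX:108439588-108439887 and COL4A6 on the minus strand in chrX:108439409-108439708 (GRCh38.p14), with annotated starts 380 bases apart. Capitals mark the 121 bases that both windows hold, each read along its own gene.
COL4A5: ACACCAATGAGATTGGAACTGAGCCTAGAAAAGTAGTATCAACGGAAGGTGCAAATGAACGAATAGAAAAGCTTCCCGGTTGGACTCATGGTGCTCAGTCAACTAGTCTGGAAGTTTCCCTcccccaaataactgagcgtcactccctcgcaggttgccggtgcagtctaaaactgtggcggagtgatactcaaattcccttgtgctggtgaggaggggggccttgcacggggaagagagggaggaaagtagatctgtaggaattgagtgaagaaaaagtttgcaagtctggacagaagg
COL4A6: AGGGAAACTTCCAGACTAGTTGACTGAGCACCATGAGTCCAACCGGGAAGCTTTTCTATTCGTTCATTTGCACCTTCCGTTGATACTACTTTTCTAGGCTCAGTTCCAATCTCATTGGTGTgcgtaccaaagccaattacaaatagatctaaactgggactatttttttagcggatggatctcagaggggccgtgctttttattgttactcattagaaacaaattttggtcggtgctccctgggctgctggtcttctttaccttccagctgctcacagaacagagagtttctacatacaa
The windows held CCAAT, on either strand, 2 and 3 times, a motif found in 34.6% of all windows. The 2 sites of the COL4A5 window lie in the shared bases and are the same as 2 of the 3 in the COL4A6 window. Neither window held one of the hypoxia cores. The GC box GGGCGG, present in 45% of windows, was absent from both. So were the TATAAA box, present in 11.5% of windows, and the activator protein site TGANTCA (N is any base), present in 7.71%. Among other neighbours in the genome, COL4A1 and COL4A2 are a head-to-head pair on chromosome 13 and had the 2 changes given above, which did not pass. COL3A1, next to COL5A2 on chromosome 2, was above background on no aspirin array (4.34, 4.67 and 4.80) and on 2 control arrays (4.44, 5.59 and 5.52).

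FACIT collagens attach to the surface of fibrils. Of 10 genes listed 6 were tested and none passed, at a median change of 0.17. COL22A1, a collagen of tissue junctions, had the highest change of any gene described here and also the widest spread. It measured 7.88, 10.33 and 10.10 on aspirin arrays 1 to 3, against 5.45, 8.77 and 8.46 on control arrays 1 to 3. Replicate 1 was the lowest array of both groups, and the groups overlapped. The means were 9.44 ± 1.35 with aspirin and 7.56 ± 1.84 in control (SD, n = 3 each), a change of 1.88 ± 0.91 (adjusted p = 0.186). The change was 0.82 without control array 1 and 2.66 without aspirin array 1, and neither passed. COL12A1, which coats type I fibrils, had 4.9997, 5.27 and 5.58 with aspirin and 5.36, 6.41 and 6.03 in control (-0.65 ± 0.27, adjusted p = 0.129), and without control array 1 the change was -0.93 (adjusted p = 0.0204). COL9A2, COL9A3, COL16A1 and COL20A1 had changes of -0.47 to 0.19 with adjusted p from 0.335 to 0.705.

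Same-numbered arrays of the 2 groups deviated together from their group means over all genes (correlations 0.508, 0.516 and 0.32). The labels do not say what a replicate number marks, so the pairing rests on these correlations. Replicate 2 of both groups was on chip 2, so a difference between chips would also give positive correlations. The correlations cannot tell this apart from paired samples. With the replicate number as a block, 17 of the 33 genes passed, 14 lower and 3 higher, against 33.2% of all genes (15.7% lower and 17.5% higher). The 6 genes gained were COL22A1, COL5A1, COL12A1, COL13A1, COL6A2 and LOXL4. The aspirin minus control differences of COL22A1 were 2.44, 1.56 and 1.64 in replicates 1 to 3 (blocked adjusted p = 0.000449). COL5A1, the partner chain of COL5A2, had 9.55, 10.66 and 10.36 with aspirin and 10, 11.10 and 11.22 in control. Its groups overlapped (-0.58 ± 0.37, adjusted p = 0.312), while all 3 pair differences were negative (-0.45, -0.44 and -0.86, blocked adjusted p = 0.0142). LOXL4, a lysyl oxidase expressed in many carcinoma lines, had 7.88, 7.11 and 6.32 with aspirin and 8.53, 7.41 and 7.27 in control (-0.64 ± 0.43, adjusted p = 0.34, blocked adjusted p = 0.0152). COL12A1 had a blocked adjusted p of 0.0238. In the unpaired fit, leaving out 1 array moved LOXL4 between -0.24 (without control 1) and -1.02 (without aspirin 1), COL5A1 between -0.26 (without aspirin 1) and -0.97 (without control 1), and COL6A2 between 0.12 (without control 1) and 0.83 (without control 3), and none of these passed. In 27 of the 33 genes (81.8%) all 3 pairs had 1 direction, against 61.5% of all genes tested. Array 1 was the lowest of its group in both aspirin and control in 23 of the 33 genes, a pattern noticed after the values were seen and found in 19.2% of all genes tested. The 23 include COL22A1, COL5A1, COL5A2, COL6A1, COL6A2, COL4A1, COL4A2, LUM and DCN. Array 1 was the highest of both groups in LOX, LOXL4 and COL9A3, a pattern found in 20.7% of all genes.

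**Figure D3:**
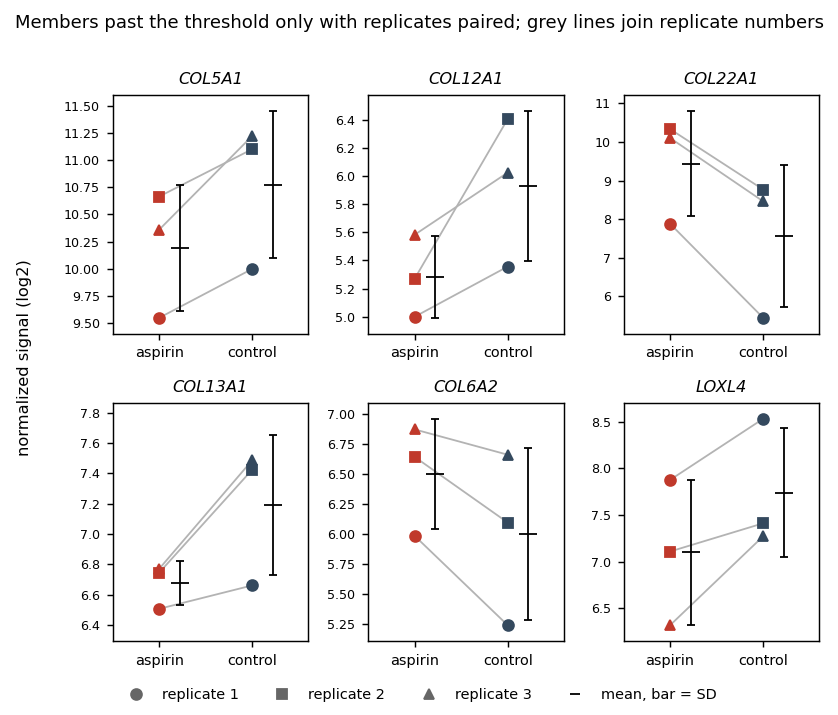
Normalized log2 signal of the 6 genes that passed only with the replicate number as a block (points by replicate, grey lines join same-numbered arrays; bars are mean and SD, n = 3 per group; each panel has its own axis). The groups overlap in all 6 panels, while the 3 lines of a panel run the same way, a pattern that this choice of genes favours.

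Transmembrane collagens sit in the cell membrane and are shed from it. COL23A1, the only gene that rose, is expressed in epithelia. It measured 5.89, 6.25 and 6.39 with aspirin and 4.87, 5.49 and 5.43 in control. The groups did not overlap, with means of 6.17 ± 0.26 for aspirin and 5.27 ± 0.35 for control (SD, n = 3 each) and a change of 0.91 ± 0.21, 1.88-fold higher (adjusted p = 0.0183). The call was lost without aspirin array 2 (0.87, adjusted p = 0.0585) or aspirin array 3 (0.80, 0.072). COL17A1, the hemidesmosomal collagen that ties basal keratinocytes to the basement membrane, had 11.61, 11.86 and 11.61 with aspirin and 11.72, 12.43 and 12.16 in control. It did not pass (-0.41 ± 0.20, adjusted p = 0.178), and without control array 1 the change was -0.60 (adjusted p = 0.0405). COL13A1, found at adhesion sites, had 6.51, 6.74 and 6.77 with aspirin and 6.66, 7.43 and 7.49 in control (-0.52 ± 0.23, adjusted p = 0.146, blocked adjusted p = 0.031), and without control array 1 the change was -0.78 (adjusted p = 0.0128).

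Among the beaded filament, anchoring fibril and other collagens, 4 of 9 genes were tested and none passed, with changes of 0.13 to 0.50. COL7A1, which forms the anchoring fibrils beneath squamous epithelium, measured 10.95, 10.97 and 11.23 with aspirin and 10.65, 10.91 and 11.19 in control (0.13 ± 0.17, adjusted p = 0.635). COL6A2, a chain of the beaded filaments of type VI collagen, had 5.98, 6.64 and 6.87 with aspirin and 5.24, 6.09 and 6.66 in control (0.50 ± 0.36, adjusted p = 0.37, blocked adjusted p = 0.0285). COL6A1, its neighbour on chromosome 21, changed by 0.26 ± 0.41 (adjusted p = 0.712), and COL28A1 by 0.36 ± 0.27 (adjusted p = 0.392). COL18A1, the basement membrane collagen from which endostatin is cut, missed the detection filter, with 6.26, 5.31 and 5.53 for aspirin and 6.24, 6.17 and 6.10 for control (-0.47, adjusted p = 0.184 with the filter on the signal).

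Of the 22 genes not tested, 3 were above background on at least 3 arrays (COL4A6, COL8A1 and COL18A1, given above) and 4 on 1 or 2 arrays (COL2A1, COL3A1, COL6A3 and COL11A2). The other 15, which include the type XI chain COL11A1, the hypertrophic cartilage collagen COL10A1, the glomerular chains COL4A3 and COL4A4, COL14A1 and COL15A1, were above background on no array. COL29A1 is an older symbol of COL6A5.

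The background estimate moved the values of dim genes. A background taken from all listed genes, which put its mean at 132 to 175 units and above the median signal of every array, left 6 of the 11 calls. PLOD2 (-1.83, adjusted p = 0.00168), LOX (-2.95, 0.0101), COL4A5 (-0.75, 0.0134), COL5A2 (-1.93, 0.0135), BGN (-1.33, 0.0157) and DCN (-0.19, 0.0455) still passed. LUM (-0.70, 0.0663), COL1A1 (-0.24, 0.0561), COL1A2 (-0.12, 0.108), LOXL1 (-0.06, 0.155) and COL23A1 (0.07, 0.0762) did not. LUM, DCN, COL1A2, LOXL1, COL12A1, COL6A2, COL4A6, COL8A1 and COL18A1 are among the genes whose detection scores do not fall on whole steps of 1 in 770. Whether their values combine several probes was not tested. On chip 1 alone (2 arrays per group) 6 of the 11 calls were kept: LOX (-2.58), LUM (-2.80), DCN (-1.95), COL5A2 (-1.88), PLOD2 (-1.57) and BGN (-1.17). The single pair on chip 2 differed in the same direction in all 11 genes, for example by -2.16 for LOX, -1.45 for PLOD2, -3.03 for LUM and 0.75 for COL23A1.

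The other genes through which collagen is folded, exported, processed and bound were read from lists set by function. The deposited signal table lists 76 such genes, and 23 of them were above background on no array. Of the 76, 37 were tested and 7 passed, 4 lower and 3 higher, at a median change of -0.02. This share is near the 20.2% of all genes tested that passed. In the folding and modification list, FKBP10 rose, LEPREL1 fell and 8 of the 10 tested genes did not pass. FKBP10, a collagen chaperone that acts with telopeptide lysyl hydroxylation, had 7.39, 7.32 and 7.47 with aspirin and 6.23, 6.12 and 6.71 in control (1.04 ± 0.17, adjusted p = 0.00534). It thus rose where PLOD2 fell. LEPREL1, a prolyl 3-hydroxylase now named P3H2, had 10.67, 11.17 and 11.02 with aspirin and 11.55, 12.59 and 12.47 in control (-1.25 ± 0.28, adjusted p = 0.0152), and the call was lost without control array 3 (-1.12, adjusted p = 0.0594). SERPINH1, the collagen chaperone HSP47, had 9.80, 9.53 and 9.88 with aspirin and 10.11, 10.18 and 10.55 in control, which missed the threshold (-0.54 ± 0.17, adjusted p = 0.0536, blocked adjusted p = 0.0155).

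In the export and processing list, 10 genes were tested, of which SEC31A rose, TLL1 fell and 8 did not pass. SEC31A, a subunit of the coat of vesicles leaving the endoplasmic reticulum, changed by 0.52 ± 0.13 (adjusted p = 0.0255), a call lost when any 1 array was left out (adjusted p 0.0511 to 0.0846). TLL1, a relative of the procollagen C-proteinase BMP1, had 5.53, 5.10 and 5.22 with aspirin and 6.31, 6.06 and 6.49 in control (-1.004 ± 0.17, adjusted p = 0.00571). Among 5 receptors tested, ITGA2, the alpha chain of the main collagen-binding integrin of epithelial cells, rose. Its values of 10.86, 10.48 and 10.40 with aspirin all lay above those of 8.66, 8.99 and 8.96 in control (1.71 ± 0.17, adjusted p = 0.000703). Its partner chain ITGB1 (-0.40 ± 0.14, adjusted p = 0.0784) and the collagen receptor kinase DDR1 (0.34 ± 0.15, adjusted p = 0.148) did not pass. Of 12 other collagen-binding matrix genes tested, 2 fell and 10 did not pass. MATN2, a matrilin that bridges matrix filaments, had 7.03, 6.61 and 6.51 with aspirin and 8.37, 8.14 and 8.42 in control (-1.59 ± 0.17, adjusted p = 0.00096). ECM2 had 4.46, 4.80 and 4.68 with aspirin, above background on 1 of the 3 arrays, and 6.21, 6.75 and 6.61 in control. The fitted change was -1.88 ± 0.18 (adjusted p = 0.000611). The aspirin values of ECM2 lie at background, so the size of its fall depends on the background estimate. With 1 aspirin array and all 3 control arrays above background, ECM2 entered the test mainly through its control arrays. With the background from all listed genes these changes were 0.20 for FKBP10, -0.09 for TLL1, -0.55 for MATN2 and -0.15 for ECM2, and all 4 still passed, while LEPREL1 did not (-1.38, adjusted p = 0.0671). With the replicate block 16 of the 37 passed, 10 lower and 6 higher, against 33.2% of all genes (15.7% lower and 17.5% higher).

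**Figure D4:**
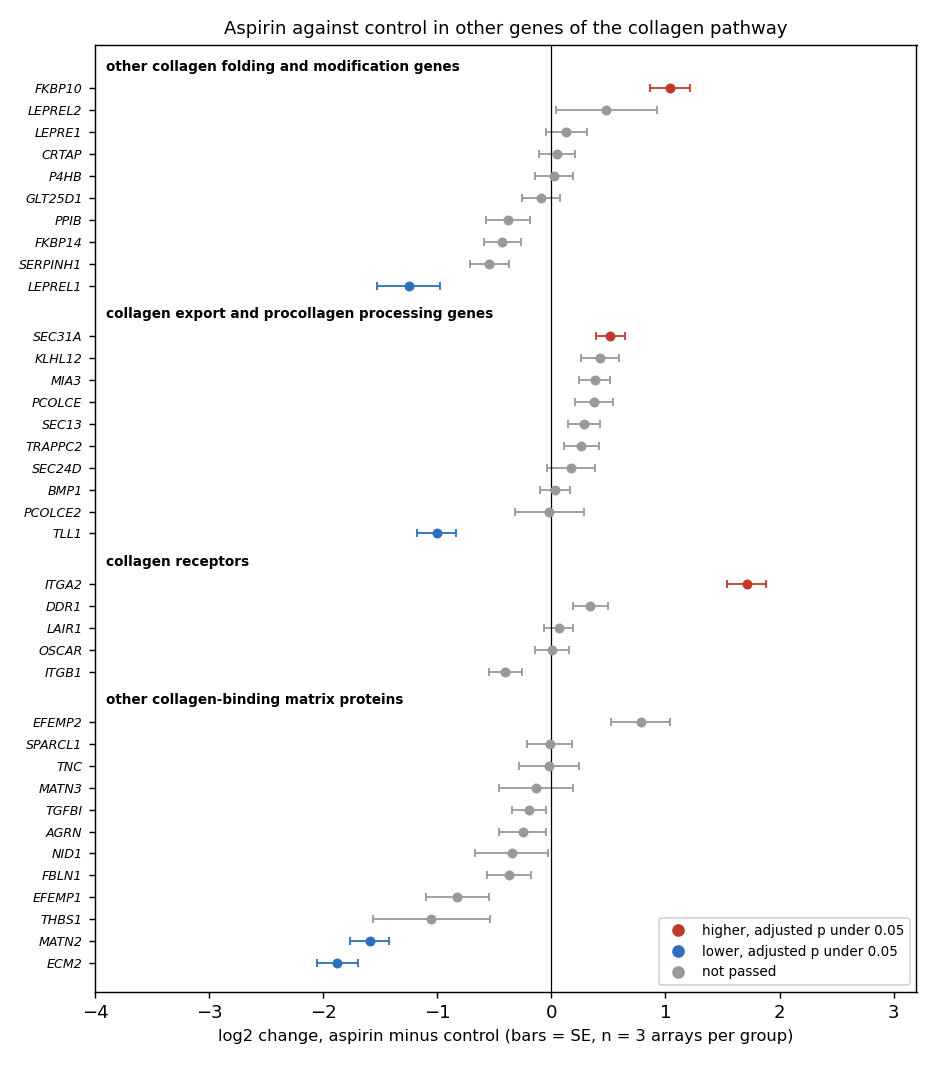
Log2 change (aspirin minus control, horizontal axis; bars are the SE, n = 3 arrays per group) of the 37 other genes of collagen folding, export, binding and matrix that were tested, by list. ITGA2 lies highest at 1.71 and ECM2 lowest at its fitted value of -1.88, and 30 of the 37 did not pass.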

How the data were processed

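Total RNA of 3 aspirin-treated and 3 untreated SCC25 samples was measured, 1 array each. Each gene has 1 deposited signal intensity per array, which per the file headers is not normalized. The submitters' processing notes name GenomeStudio 1.9.0, and sources used here name no probe annotation. Beside it stands a deposited fraction that the authors head as a detection p-value. In practice it was high for bright genes (mean 0.994 for the brightest 1000) and low for dim ones (0.17 for the dimmest 1000), so it was read as a score of 1 minus p. The deposited matrix of intensity values equals the signal minus 1 constant per array, with names that slip against the values. It was realigned and used as an alternative.

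Background was corrected by the normal-exponential model, with mean and SD per array inferred from the scores of the 27647 genes (79.7%) on steps of 1 in 770 (tolerance 0.005 of a step). An offset of 16, quantile normalization and log2 followed (limma 3.58.1, R 4.3.3). 1 gene with signal 0 was left out. Aspirin was compared with control by lmFit and eBayes without covariates, with Benjamini-Hochberg adjustment over 15128 genes. The code was tested on simulated data. 1 leukocyte marker is not reported here. The members and lists were chosen with earlier results of these data known, and no test over a list was made. Values by array are given for members that passed, members tested whose groups do not overlap and members above background but not tested, and pathway genes past the threshold are named. Further members were given by array for comparison, after their values were seen. The replicate numbers were taken as pairs because all 3 correlations of deviations were over 0.1. Alternatives were the replicate or chip as a block, chip 1 alone, another background, offset, scaling, filter or prior, the matrix, and leaving out arrays. Promoter sequences are RefSeq's (GRCh38.p14), matched by symbol for 40 of 55 genes.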

Additional observations from a re-analysis of the deposited data

How the results depend on the processing

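Of the 20 alternative settings, chip 1 alone and leaving out both arrays of replicate 2 are the same fit, listed under both names. LOX and PLOD2 passed in all 20. DCN did too, but it entered through its control arrays alone and its change was -0.19 with the background from all listed genes. The other 8 of the 11 genes called were lost in at least 1 setting, always in the same direction. The count of 11 became 17 with the replicate block, 6 on chip 1 alone and 6 with the background from all listed genes. It ran from 4 to 15 when 1 array, or both arrays of a replicate, were left out. Without both arrays of replicate 3, where 4 remained called, BGN (adjusted p = 0.0738), COL5A2 (0.0509), COL4A5 (0.0827), COL1A1 (0.119), COL1A2 (0.104), COL23A1 (0.14) and LOXL1 (0.17) were lost. Fewer arrays enter these fits. Over all genes the 3059 calls became 5020 with the block and 859 on chip 1, with 440 to 3149 under the leave-outs. Pathway calls went to 16 with the block and 4 on chip 1, with 4 to 10 under the leave-outs, against 7. Median scaling gave 1026 genes higher and 1522 lower, against 1589 and 1470, and the cause was not tested. An offset of 50 ended the LOXL1 call (-0.50, adjusted p = 0.0508), and no filter ended those of LOXL1 (0.0846) and COL1A2 (0.056). Signs turned in 6 genes that never passed: COL7A1 under median scaling (-0.0096), and under the leave-outs COL16A1 (-0.0945 to 0.3601), COL8A2 (-0.0173 to 0.384), COL6A1 (-0.1309 to 0.6257), COL4A1 (-0.4547 to 0.0155) and LOXL3 (-0.157 to 0.2437). The number of arrays and the closeness of dim genes to background limit what can be seen.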
